A study of Mus musculus with 24 samples.

Results

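The 10 genes described here, Igf1, Hgf, Pdgfa, Pdgfb, Pdgfc, Bmp2, Ereg, Areg, Nrg1 and Hbegf, encode secreted or membrane-shed growth factors that act on epithelial and stromal cells. They were taken by name: a row of the deposited expression table belonged to the set when its Ensembl gene identifier, without the version, mapped to 1 of these mouse symbols. All 10 were found among the 17301 genes deposited, and all 10 were among the 12878 genes tested. The values are log2 RPKM (log2 of the reads per kilobase of gene length, scaled to library size), so that 1 unit is a doubling.

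IGF1 signals through the type 1 IGF receptor and is held by binding proteins, and HGF, cut into its active form by serine proteases, signals through MET. The PDGF ligands act on the receptors PDGFRα and PDGFRβ of mesenchymal cells. BMP2 opposes WNT-driven proliferation in the intestinal crypt and is blocked by antagonists such as gremlin. Epiregulin (Ereg), amphiregulin (Areg), neuregulin 1 (Nrg1) and HB-EGF (Hbegf) are made as membrane precursors that metalloproteases release, and they bind the EGF receptor or its relatives ERBB3 and ERBB4. Macrophages are a known source of IGF1, PDGF and EGF family ligands in healing tissue.

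The study sorted 4 kinds of myeloid cell from 2 tissues: the colon lamina propria (LP) of C57/BL mice, and colon tumours from the APC/Min strain, whose mutant Apc allele gives rise to intestinal adenomas. The cells were F4/80hi CD11b+ macrophages split into MHCIIhi and MHCIIlow, Ly6Chi MHCII- monocytes and Ly6Ghi neutrophils, and each of the 8 groups held 3 libraries. Tissue of 13 to 15 mice of both sexes, aged 3 to 4 months, was pooled for every library, and the labels number the pools. The Apc mutant mice drank dextran sodium sulphate for 1 week at 6 to 8 weeks of age and were killed 4 weeks later. Per the study's methods the C57BL/6J mice drank it too, while the labels call the LP healthy, so the treatment of the LP groups is not settled by the labels. Genotype, tissue, tumour, dissociation protocol and the dextran sodium sulphate treatment or its dose change together between LP and tumour and cannot be told apart in these comparisons. Values of a group are given in the order of its pools, which are III, IV and V for LP MHCIIhi macrophages, LP monocytes and LP neutrophils, II, III and IV for LP MHCIIlow macrophages, I, V and VII for both tumour macrophage subsets, and I, II and V for tumour monocytes and neutrophils.

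The libraries held 12.8 M to 41.7 M reads on genes (M for mega), with a median of 26.4 M. Adgre1 (F4/80) lay at 247 to 470 RPKM in the macrophage libraries, against 57.4 to 108 RPKM in the monocyte libraries, and Ly6g at 42.5 to 415 RPKM in neutrophils against at most 1.6 RPKM in every other library. Ly6c2, at 43.2 to 87 RPKM in monocytes, was no lower in neutrophils (42.6 to 131 RPKM) and so set monocytes apart from macrophages only. The LP MHCIIlow library of pool II stood apart from its group, with summed monocyte markers at 453 RPKM against 136 and 143.5 RPKM, and so did the LP monocyte library of pool III, with summed endothelial and platelet markers at 139 RPKM against 13.6 and 15.8 RPKM. Leaving out the first changed the call of 3 of the members' values and leaving out the second that of 7, and these are given below with and without the library. The LP monocyte library of pool III also had the highest epithelial marker sum of its group, 323 RPKM against 31.7 and 161 RPKM. Its neutrophil marker sum was 579 RPKM against 135 and 152 RPKM. It held the most Areg (50.4 RPKM) and Ereg (11.6 RPKM) of the LP monocyte libraries, and the part of that RNA in these levels was not tested.

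The 250 bases before the annotated start are shown for 4 members whose levels set macrophages apart from monocytes or tumour from LP (RefSeq, GRCm38.p6, written 5′ to 3′ on the gene's strand, which is the plus strand for all 4). Capitals mark every match, on either strand, to 1 of 5 motifs that are spelled out after the sequences: a CRE, an AP-1 element, a TATA box, a PU.1 core or a C/EBP element.
Igf1 promoter, chr10:87860861-87861110: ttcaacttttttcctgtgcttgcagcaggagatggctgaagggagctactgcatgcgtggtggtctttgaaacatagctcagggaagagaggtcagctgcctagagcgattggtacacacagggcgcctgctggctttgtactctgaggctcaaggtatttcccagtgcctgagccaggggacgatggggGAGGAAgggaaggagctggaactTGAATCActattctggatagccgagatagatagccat
Hgf promoter, chr5:16553245-16553494: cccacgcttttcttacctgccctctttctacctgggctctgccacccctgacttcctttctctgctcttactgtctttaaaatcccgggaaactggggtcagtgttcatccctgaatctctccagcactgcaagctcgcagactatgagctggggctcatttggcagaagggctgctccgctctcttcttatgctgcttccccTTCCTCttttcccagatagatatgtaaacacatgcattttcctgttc
Pdgfc promoter, chr3:81036166-81036415: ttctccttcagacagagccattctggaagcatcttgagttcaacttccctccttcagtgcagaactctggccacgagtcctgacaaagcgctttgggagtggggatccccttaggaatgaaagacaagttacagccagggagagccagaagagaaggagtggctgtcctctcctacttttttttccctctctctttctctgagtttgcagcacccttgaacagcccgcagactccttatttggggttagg
Areg promoter, chr5:91139349-91139598: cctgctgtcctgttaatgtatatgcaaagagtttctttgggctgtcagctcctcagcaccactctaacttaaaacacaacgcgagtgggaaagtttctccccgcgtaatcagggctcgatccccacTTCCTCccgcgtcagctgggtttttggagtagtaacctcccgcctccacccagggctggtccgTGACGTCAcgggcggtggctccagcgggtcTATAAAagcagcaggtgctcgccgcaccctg

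The Areg window held a CRE, searched as TGACGTCA, that began 61 bases before the start and a TATA box, searched as TATAAA, that began 31 bases before it. A CRE was present in 1.55% and a TATA box in 12.4% of all 32851 promoter windows of that length. Igf1 held an AP-1 element, searched as TGANTCA, which 6.75% of windows did, and Igf1, Hgf and Areg each held a PU.1 core, searched as GAGGAA, present in 23.3% of windows. None of these letters occurred in the Pdgfc window, and the C/EBP element, searched as TTGCNNAA and found in 9.56% of all windows, occurred in none of the 4. Both strands were searched and no match overlapped another. A match describes letters and does not show binding. The Igf1 window lies inside the GENCODE M21 span of the gene, which begins at 87858265, and the bases before that first start are not shown. The promoter table matched 5 of the 10 members. The other one was Pdgfa, which also set macrophages apart from monocytes and whose windows are not shown. Its second window held a PU.1 core that began 27 bases before the start. RefSeq annotates 2 starts for Hgf and for Pdgfa. The first Hgf window is shown, and the second, at chromosome 5, 16553651 to 16553900, held a PU.1 core of its own that began 181 bases before its start.

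Summed over the 10 genes, the RPKM was 181 ± 13.8 (SD, n = 3) in LP MHCIIhi and 197 ± 24.7 in LP MHCIIlow macrophages, and 82.9 ± 24.01 and 87.1 ± 30.5 in the corresponding tumour macrophages. The libraries of LP and tumour did not overlap in either subset. Monocytes held 209 ± 21.3 RPKM in LP and 200 ± 11.6 RPKM in tumour, and neutrophils 44.0 ± 12.04 and 73.3 ± 22.4 RPKM. The neutrophil sums rest on library sizes below the summed reads, more so in tumour than in LP. Nrg1 made up 56.9% of this sum in LP MHCIIhi macrophages and 61.2% and 59.4% in LP and tumour monocytes. Hbegf led in LP MHCIIlow macrophages with 41.7%, and Areg in tumour neutrophils with 53.4%. In tumour macrophages the sum was spread more evenly, and Igf1 reached 15.6% in MHCIIhi and 17.8% in MHCIIlow cells, against 1.97% and 7.43% in LP. These shares compare genes on the RPKM scale and so rest on the gene lengths used by the authors, which for Hgf, Pdgfb, Nrg1 and Hbegf were 2755, 2918, 2103 and 2373 bases against 7186, 4161, 10351 and 4834 exon bases in GENCODE M21.

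**Figure D1:**
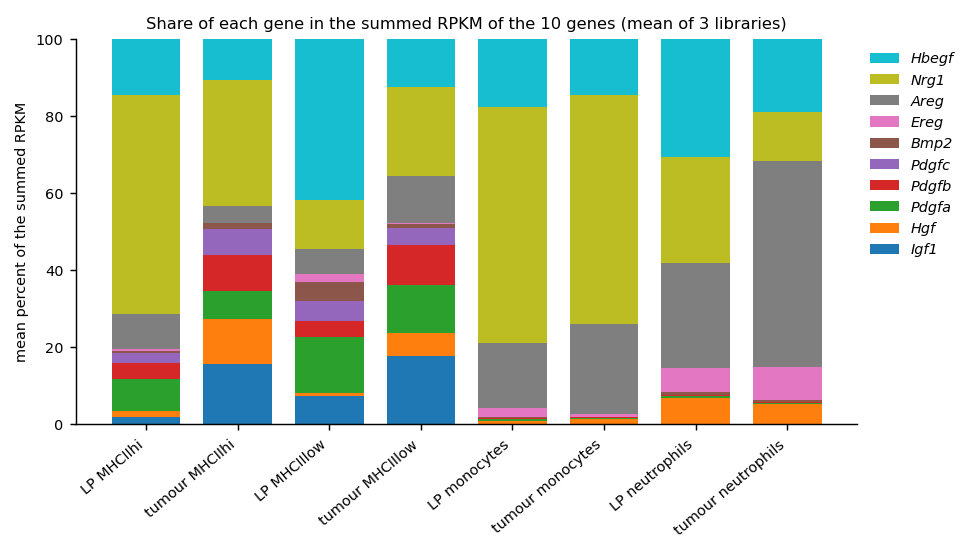
Stacked bars show the mean percent (3 libraries per group) that each of the 10 genes contributed to their summed RPKM, for the 8 groups with LP and tumour side by side. Nrg1 takes 56.9% in LP MHCIIhi macrophages and about as much in monocytes of both tissues, while Areg takes 53.4% in tumour neutrophils.

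**Figure D2:**
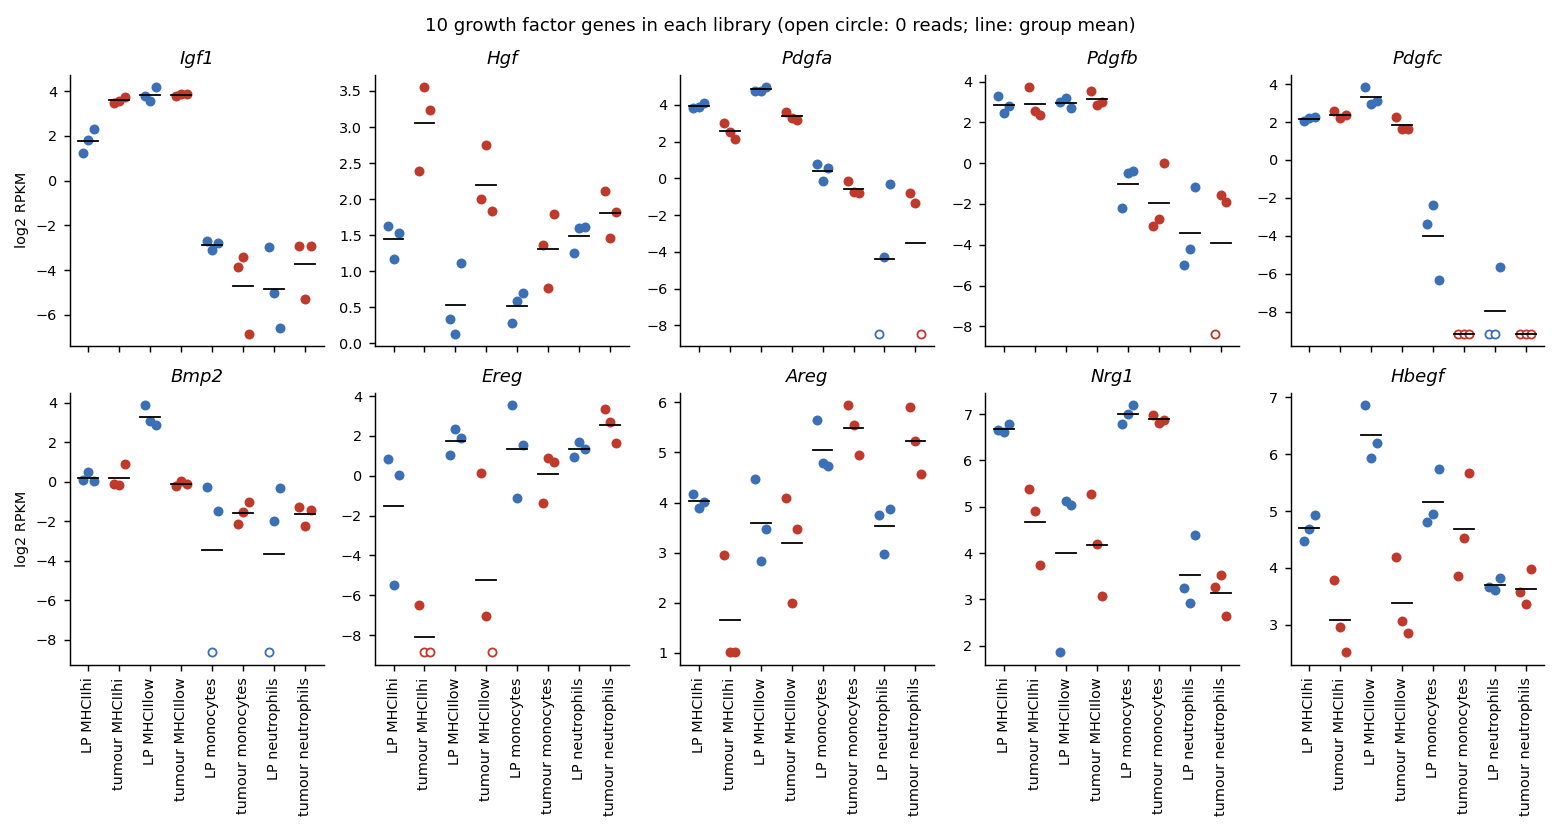
Each panel plots 1 gene as log2 RPKM (vertical scales differ between panels) in each of the 24 libraries, blue for LP and red for tumour, with a line at the group mean and open circles for libraries with 0 reads. Igf1, Pdgfa, Pdgfb and Pdgfc separate macrophages from monocytes and neutrophils, whereas Nrg1 is high in monocytes and LP MHCIIhi macrophages.

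Igf1 (ENSMUSG00000020053.14, GRCm38 chromosome 10, 87858265 to 87937042) was a macrophage transcript in both tissues. In LP MHCIIhi macrophages it measured 1.23, 1.82 and 2.29 log2 RPKM, and in tumour MHCIIhi macrophages 3.45, 3.57 and 3.71. In MHCIIlow macrophages it measured 3.78, 3.57 and 4.19 in LP and 3.78, 3.87 and 3.87 in tumour. The LP MHCIIhi libraries were thus the low ones among macrophages, and no other macrophage library overlapped them. Monocytes held -2.70, -3.11 and -2.78 in LP and -3.87, -3.41 and -6.85 in tumour, and neutrophils -2.97, -5.01 and -6.60 in LP and -2.94, -5.28 and -2.92 in tumour. Behind these low values stood 2 to 52 reads per library, against 958 to 6327 reads in macrophages.

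Macrophages exceeded monocytes in Igf1 by 5.68 ± 0.74 (SE) on the log2 scale in LP (limma adjusted p = 7.4e-06) and by 8.42 ± 0.74 in tumour (limma adjusted p = 1.72e-08). Tumour MHCIIhi macrophages were 1.80 ± 0.85 above their LP counterparts (limma adjusted p = 0.157), which did not pass the threshold, although the groups did not overlap. The fit over all libraries gives each gene 1 spread, and for Igf1 the SDs were 0.53 and 0.13 in these 2 groups against 1.82 and 1.86 in LP neutrophils and tumour monocytes. With log2(RPKM + 1) as the scale, with voom weights on the reads and with the 6 libraries alone, the limma adjusted p was 1.95e-06, 2.25e-06 and 0.0126. MHCIIlow macrophages of tumour and LP differed by -0.01 ± 0.85 in Igf1.

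Hgf (ENSMUSG00000028864.3, chromosome 5, 16553495 to 16620152) rose in both tumour macrophage subsets. It measured 1.63, 1.18 and 1.53 log2 RPKM in LP MHCIIhi and 2.39, 3.56 and 3.23 in tumour MHCIIhi macrophages, and 0.34, 0.14 and 1.11 in LP MHCIIlow and 2.00, 2.74 and 1.84 in tumour MHCIIlow macrophages. Neither pair of groups overlapped. The rise was 1.62 ± 0.35 in MHCIIhi (limma adjusted p = 0.00234) and 1.67 ± 0.35 in MHCIIlow cells (limma adjusted p = 0.00143), and it passed in every one of the 9 alternatives and after leaving out any of the 6 libraries compared. Its size hardly differed between the subsets, with a difference of 0.05 ± 0.49.

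Outside macrophages, Hgf measured 0.28, 0.59 and 0.70 in LP monocytes and 1.37, 0.77 and 1.79 in tumour monocytes. In neutrophils it measured 1.25, 1.60 and 1.61 in LP and 2.12, 1.47 and 1.83 in tumour. No group was without it: the lowest library held 62 reads. Tumour monocytes lay 0.79 ± 0.35 above LP monocytes (limma adjusted p = 0.184), and tumour macrophages exceeded tumour monocytes by 1.32 ± 0.30 (limma adjusted p = 0.0017). In LP, macrophages and monocytes differed by 0.46 ± 0.30 (limma adjusted p = 0.276), and neutrophils exceeded monocytes by 0.96 ± 0.35 (limma adjusted p = 0.025), a call lost with library sizes as summed reads (0.752) and with voom (0.104), and without LP monocyte pool III or LP neutrophil pool IV or V (0.0845, 0.0666 and 0.0662).

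Pdgfa (ENSMUSG00000025856.11, chromosome 5, 138976014 to 138997370, minus strand) was highest in LP MHCIIlow macrophages. The macrophage values were 3.80, 3.86 and 4.09 (LP MHCIIhi), 4.76, 4.76 and 4.97 (LP MHCIIlow), 3.04, 2.52 and 2.12 (tumour MHCIIhi) and 3.60, 3.31 and 3.18 (tumour MHCIIlow), and no 2 of these 4 groups overlapped. Monocytes held 0.77, -0.13 and 0.56 in LP and -0.15, -0.73 and -0.81 in tumour, and neutrophils held 0, 2 and 53 reads in LP and 22, 10 and 0 reads in tumour.

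Every tumour macrophage library therefore lay below its LP counterparts in Pdgfa, by 1.36 ± 1.56 in MHCIIhi and 1.47 ± 1.56 in MHCIIlow cells on the log2 scale (limma adjusted p = 0.622 and 0.563). Neither passed the threshold in the fit over all libraries, where the 2 neutrophil libraries with 0 reads enter the gene's spread. With log2(RPKM + 1), with voom and with the libraries compared alone, the limma adjusted p was 0.000519, 0.00104 and 0.0199 in MHCIIhi and 0.000108, 0.000143 and 0.00514 in MHCIIlow macrophages. Macrophages exceeded monocytes by 3.97 ± 1.35 in LP (limma adjusted p = 0.0319) and 3.52 ± 1.35 in tumour (limma adjusted p = 0.0461). The tumour call ended without a filter on low values (0.0512) and with any 1 of the 9 libraries left out, at a limma adjusted p of 0.0576 to 0.117, and the LP call without LP MHCIIhi pool V, LP MHCIIlow pool IV or any monocyte pool (up to 0.108). Of the exon bases of Pdgfa, 26.1% are shared with 6330403L08Rik on the opposite strand, and reads of the 2 genes cannot be told apart there without strand.

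Pdgfb (ENSMUSG00000000489.6, chromosome 15, 79995874 to 80014977, minus strand), by contrast, was level across macrophages. It measured 3.27, 2.44 and 2.79 in LP MHCIIhi, 2.99, 3.18 and 2.72 in LP MHCIIlow, 3.74, 2.57 and 2.36 in tumour MHCIIhi and 3.51, 2.84 and 3.01 in tumour MHCIIlow macrophages, and all these groups overlapped. Monocytes held -2.18, -0.49 and -0.37 in LP and -3.09, -2.75 and 0.01 in tumour. Neutrophils held 2, 2 and 28 reads in LP and 0, 8 and 6 reads in tumour. Macrophages exceeded monocytes by 3.91 ± 1.12 in LP (limma adjusted p = 0.012, or 0.0704 without LP monocyte pool III) and by 4.95 ± 1.12 in tumour (limma adjusted p = 0.00153). Tumour and LP differed by 0.06 ± 1.30 in MHCIIhi and 0.16 ± 1.30 in MHCIIlow macrophages, values well inside their errors.

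Pdgfc (ENSMUSG00000028019.5, chromosome 3, 81036416 to 81214040) was the member most restricted to macrophages. It measured 2.04, 2.19 and 2.28 in LP MHCIIhi, 3.85, 2.96 and 3.11 in LP MHCIIlow, 2.59, 2.20 and 2.36 in tumour MHCIIhi and 2.28, 1.63 and 1.63 in tumour MHCIIlow macrophages. LP monocytes held 12, 43 and 2 reads and LP neutrophils 0, 0 and 2 reads, whereas no read fell on Pdgfc in any of the 3 tumour monocyte and 3 tumour neutrophil libraries. At 3 reads per library as the limit for a count of 0, which covers counting error only, the tumour macrophages were at least 212-fold higher than the tumour monocytes, and LP monocytes at least 4.68-fold higher than tumour monocytes, or at least 2.48-fold without LP monocyte pool IV. LP monocyte pool V, with 2 reads, itself lay under that limit. Both comparisons were called (limma adjusted p = 1.36e-09 and 0.00152), as was macrophages over monocytes in LP at 6.76 ± 0.82 (limma adjusted p = 3.3e-06). The fall in tumour monocytes was no longer called on the log2(RPKM + 1) scale (limma adjusted p = 0.718), where values this low differ little.

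Within macrophages, Pdgfc was 1.14 ± 0.95 higher in LP MHCIIlow than LP MHCIIhi cells (limma adjusted p = 0.586) and 1.46 ± 0.95 lower in tumour than LP MHCIIlow cells (limma adjusted p = 0.302), with no overlap in either case. Neither passed in the fit over all libraries. The tumour difference passed with log2(RPKM + 1), voom and the libraries compared alone (3.31e-05, 6.69e-05 and 0.0338), and the difference within LP with log2(RPKM + 1) and voom (0.00114 and 0.0011). LP neutrophils fell below LP monocytes (limma adjusted p = 0.00154), and from 57 against 2 reads in all the ratio after scaling to library size was 15.9 (95% exact conditional interval 4.2 to 134). Of all 71806 deposited values of 1 to 20 reads, 65.1% were even, so both mates of a pair may have been counted and such an interval may be too narrow. With 2 reads taken as 1 fragment, a choice made after seeing the data, the ratio was 16.1 (2.68 to 660). That call was lost with log2(RPKM + 1), with voom and with the libraries compared alone (0.595, 0.0632 and 0.0673).

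Bmp2 (ENSMUSG00000027358.6, chromosome 2, 133552159 to 133562885) was set apart by LP MHCIIlow macrophages. These libraries measured 3.85, 3.09 and 2.85, against 0.07, 0.50 and 0.01 in LP MHCIIhi, -0.13, -0.17 and 0.91 in tumour MHCIIhi and -0.20, 0.01 and -0.11 in tumour MHCIIlow macrophages. On the RPKM scale the LP MHCIIlow group held 7.19 to 14.5 and no other library above 1.88. Monocytes held 75, 0 and 46 reads in LP and 24, 34 and 44 reads in tumour, and neutrophils 0, 12 and 60 reads in LP and 18, 6 and 10 reads in tumour.

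The difference of -3.36 ± 1.71 between tumour and LP MHCIIlow macrophages was not called in the fit over all libraries (limma adjusted p = 0.175), nor was the difference of 3.07 ± 1.71 between the LP subsets (limma adjusted p = 0.341). Without LP MHCIIlow pool II they were -3.07 (0.324) and 2.77 (0.537). In the fits with all 3 pools, both passed with log2(RPKM + 1) (2.69e-07 and 4.19e-06), with voom (0.000683 and 0.00122) and with the libraries compared alone (0.00476 and 0.0164). Macrophages exceeded monocytes in LP by 5.19 ± 1.48 (limma adjusted p = 0.0118). That value fell to 2.59 (limma adjusted p = 0.161) without LP monocyte pool IV, the monocyte library with 0 reads. Fibroblast transcripts were also most abundant in 2 of the 3 LP MHCIIlow libraries (sums of 92.6 and 95.4 RPKM over 13 genes), while the library of pool II, which had the most Bmp2, held 29.1 RPKM, and their part in the Bmp2 level was not tested.

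Areg (ENSMUSG00000029378.4, chromosome 5, 91139599 to 91148432) fell in tumour MHCIIhi macrophages and rose in tumour neutrophils. It measured 4.17, 3.89 and 4.0 in LP MHCIIhi and 2.96, 1.02 and 1.01 in tumour MHCIIhi macrophages, and 4.47, 2.83 and 3.46 in LP MHCIIlow and 4.09, 2.00 and 3.47 in tumour MHCIIlow macrophages. Monocytes held 5.66, 4.79 and 4.72 in LP and 5.94, 5.55 and 4.95 in tumour, and neutrophils 3.75, 2.98 and 3.88 in LP and 5.91, 5.22 and 4.57 in tumour. Tumour monocytes, tumour neutrophils and LP monocytes, the groups with the most Areg, overlapped one another. The neutrophil and MHCIIhi groups did not overlap between tissues, while the MHCIIlow and monocyte groups did.

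The fall of Areg in MHCIIhi macrophages was 2.36 ± 0.55 (limma adjusted p = 0.00406) and was called in all 9 alternatives and without any 1 library. In MHCIIlow macrophages the difference was -0.40 ± 0.55 (limma adjusted p = 0.667), and the difference between the subsets' tumour effects, 1.96 ± 0.77, was not called (limma adjusted p = 0.262). With the pools as a fixed replicate block within each tissue, a fit added after seeing the data, it was 2.40 (0.0332). The rise in neutrophils was 1.70 ± 0.55 (limma adjusted p = 0.0222). It was lost with quantile normalization (0.0887), with library sizes as summed reads (0.0743), without LP neutrophil pool IV (0.0881) and without tumour neutrophil pool I (0.098). Tumour monocytes exceeded tumour macrophages by 3.05 ± 0.47 (limma adjusted p = 3.08e-05). In LP the same gap was 1.25 ± 0.47 (limma adjusted p = 0.0527) and was called in 6 of the 9 alternatives, the random replicate block (0.0387) among them, and with the fixed block within tissue (0.00228). Without LP MHCIIlow pool II it was called too (0.0251), and without LP monocyte pool III it was 0.95 (0.225). LP neutrophils fell below LP monocytes by 1.52 on the log2 scale (limma adjusted p = 0.0239), a call lost without LP monocyte pool III (0.105) or LP neutrophil pool IV (0.1).

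Ereg (ENSMUSG00000029377.4, chromosome 5, 91074622 to 91093646), which lies near Areg on the same chromosome, held 0 or 1 reads in every tumour macrophage library except MHCIIlow pool I. LP MHCIIhi macrophages held 306, 4 and 133 reads and LP MHCIIlow macrophages 350, 458 and 268 reads. Tumour MHCIIhi macrophages held 1, 0 and 0 reads and tumour MHCIIlow macrophages 122, 1 and 0 reads. All tumour MHCIIhi libraries lay below all LP ones. LP pool IV, however, at 0.0202 RPKM, lay under the RPKM of 3 reads in tumour pool I (0.0265), so that this separation is within counting error. In MHCIIlow cells the library of pool I, at 0.15 log2 RPKM, came nearest to the LP range of 1.03 to 2.36. Elsewhere Ereg was present in every library, at 3.53, -1.09 and 1.54 in LP and -1.36, 0.91 and 0.67 in tumour monocytes. The highest group mean was that of tumour neutrophils at 3.35, 2.71 and 1.63, with LP neutrophils at 0.95, 1.72 and 1.33.

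From LP to tumour Ereg fell in MHCIIhi macrophages (limma adjusted p = 0.0126) and in MHCIIlow macrophages (limma adjusted p = 0.00659). For MHCIIhi cells, 443 reads in LP against 1 in tumour gave a ratio of 371 after scaling to library size (95% exact conditional interval 66.2 to 1.47e+04), or 186 (33 to 7.37e+03) with 2 reads taken as 1 fragment. These intervals pool the libraries and leave out the spread between them, which in LP was wide, pool IV holding 4 of the reads. The fitted log2 changes, -6.55 ± 1.78 and -7.0 ± 1.78, depend on the prior of 0.25 reads. The MHCIIhi call was lost with log2(RPKM + 1) (0.29), with voom (0.156), with the libraries compared alone (0.0604), and without LP MHCIIhi pool III (0.075) or V (0.0621). The MHCIIlow call was lost with the libraries compared alone (0.103) and without tumour pool VII (0.0526). Tumour macrophages also fell below tumour monocytes in Ereg (limma adjusted p = 0.00169, or 0.117 with log2(RPKM + 1)), with tumour MHCIIlow pool I inside the monocyte range.

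Nrg1 (ENSMUSG00000062991.6, chromosome 8, 31814551 to 32884029, minus strand) had the highest RPKM of the 10 genes, on the short gene length the authors used for it. It measured 6.79, 7.0 and 7.18 in LP monocytes, 6.99, 6.80 and 6.87 in tumour monocytes and 6.65, 6.61 and 6.79 in LP MHCIIhi macrophages. LP MHCIIlow macrophages held 1.86, 5.12 and 5.03. Tumour macrophages held 5.38, 4.91 and 3.74 (MHCIIhi) and 5.27, 4.19 and 3.08 (MHCIIlow), and neutrophils 3.25, 2.92 and 4.39 in LP and 3.26, 3.52 and 2.65 in tumour. The LP MHCIIhi macrophages, unlike the other 3 macrophage groups, were thus close to monocytes.

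From LP to tumour, Nrg1 fell by 2.00 on the log2 scale in MHCIIhi macrophages (SE 0.65, limma adjusted p = 0.0352), a call lost without 5 of the 6 libraries compared, tumour MHCIIhi pool I being the exception (0.0571 to 0.173). Within LP, MHCIIlow macrophages lay 2.68 ± 0.65 below MHCIIhi ones (limma adjusted p = 0.0146). Without LP MHCIIlow pool II, which held 3.62 RPKM against 34.8 and 32.7 RPKM, the value was -1.60 (0.0794), and with the libraries compared alone the call was lost too (0.15). Monocytes exceeded macrophages by 2.46 ± 0.57 in tumour (limma adjusted p = 0.00173) and by 1.65 ± 0.57 in LP (limma adjusted p = 0.033). The LP call was lost with quantile normalization (0.0668), with the libraries compared alone (0.0913) and without 5 of the 9 libraries, LP monocyte pool III among them (0.0644). Neutrophils lay below monocytes by 3.47 ± 0.65 in LP (limma adjusted p = 0.00016) and 3.74 ± 0.65 in tumour (limma adjusted p = 6.08e-05), in every alternative and omission.

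Hbegf (ENSMUSG00000024486.5, chromosome 18, 36504927 to 36515805, minus strand) fell in both macrophage subsets. It measured 4.47, 4.69 and 4.94 in LP MHCIIhi and 3.80, 2.96 and 2.52 in tumour MHCIIhi macrophages, and 6.86, 5.93 and 6.21 in LP MHCIIlow and 4.20, 3.07 and 2.86 in tumour MHCIIlow macrophages. Monocytes held 4.81, 4.95 and 5.74 in LP and 3.85, 4.52 and 5.67 in tumour, and neutrophils 3.67, 3.62 and 3.82 in LP and 3.58, 3.36 and 3.97 in tumour. The macrophage groups of the 2 tissues did not overlap, and those of monocytes and neutrophils did.

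The fall of Hbegf was 2.96 ± 0.41 in MHCIIlow macrophages (limma adjusted p = 2.38e-05, called in every alternative and omission) and 1.61 ± 0.41 in MHCIIhi macrophages (limma adjusted p = 0.00849, or 0.0561 without tumour MHCIIhi pool VII). In monocytes the difference was -0.49 ± 0.41 (limma adjusted p = 0.551) and in neutrophils -0.06 ± 0.41 (limma adjusted p = 0.935). Within LP, MHCIIlow cells exceeded MHCIIhi cells by 1.63 ± 0.41 (limma adjusted p = 0.0182). This call ended without LP MHCIIhi pool III or IV (0.0771 and 0.0576) and without LP MHCIIlow pool II (1.37, 0.097), and with the fixed block within tissue (1.53, 0.0628). Tumour macrophages lay 1.45 ± 0.36 below tumour monocytes (limma adjusted p = 0.00305), and neutrophils lay below monocytes by 1.47 ± 0.41 in LP (limma adjusted p = 0.00524) and 1.04 ± 0.41 in tumour (limma adjusted p = 0.036). The last of these was lost with voom (0.126), with the libraries compared alone (0.134) and without tumour monocyte pool II or V or tumour neutrophil pool I or II (0.0525, 0.26, 0.0761 and 0.111).

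In both tumour macrophage subsets the library of pool I held the most of 7 of the 10 members, Areg, Ereg, Nrg1, Hbegf and the 3 PDGF ligands, of its 3 libraries, and also the most epithelial RNA, with summed epithelial markers at 108 RPKM in MHCIIhi and 290 RPKM in MHCIIlow cells against 12.7 to 58.4 RPKM in pools V and VII. The part of that RNA in the level of these 7 genes was not tested.

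**Figure D3:**
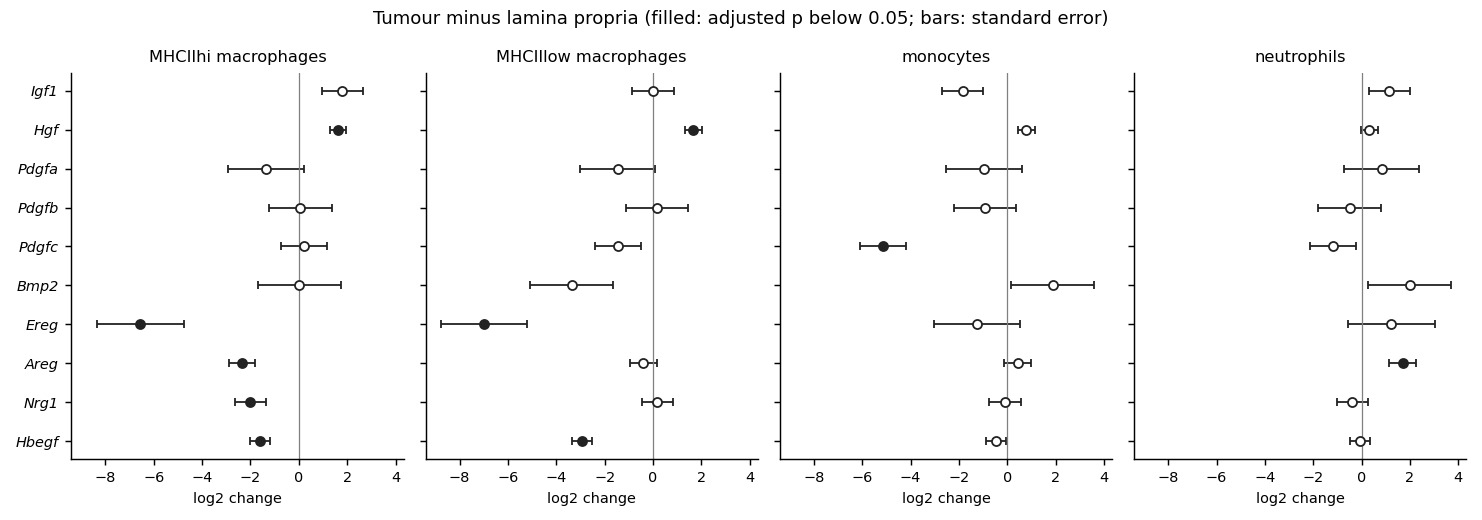
Log2 change from LP to tumour for each of the 10 genes (points, bars 1 standard error) in the 4 cell types, filled where the limma adjusted p passed 0.05. Hgf lies to the right and the 4 EGF family ligands to the left in MHCIIhi macrophages, and the filled point of neutrophils is Areg at 1.70.

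Counted over the set, tumour MHCIIhi macrophages had 1 member called higher than in LP, Hgf, where 8.01% of all genes tested were, and 4 called lower, Ereg, Areg, Nrg1 and Hbegf, where 11.5% were. In MHCIIlow macrophages 1 member was higher, Hgf, with 11.5% of all genes, and 2 were lower, Ereg and Hbegf, with 11.8%. In monocytes no member was called higher (background 4.86%) and 1 was lower, Pdgfc (4.43%), and in neutrophils 1 was higher, Areg (13.1%), and none was lower (19.0%). The median change of the 10 was -0.67 in MHCIIhi and -0.93 in MHCIIlow macrophages, while the median over all genes lay within 0.06 of 0 in both. At an unadjusted limma p under 0.05, 6, 3, 3 and 1 members differed in the 4 cell types. Of all 12878 genes, 1774 were higher and 2204 lower at that p in MHCIIhi and 2238 and 2120 in MHCIIlow macrophages. The numbers were 1492 and 1389 in monocytes and 2248 and 3107 in neutrophils. Voom called 6, 6, 1 and 1 members, given without the share of all genes it called.

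Between the macrophage subsets of LP, MHCIIlow cells had 1 member called higher, Hbegf (2.13% of all genes), and 1 lower, Nrg1 (5.57%). With voom the counts were 5 and 1, and with log2(RPKM + 1) also 5 and 1. With the libraries compared alone they were 4 and 0, and with the fixed block within tissue 0 and 1. These counts are given without the share of all genes called by the same fit, and so are not read as a result about the members. Without LP MHCIIlow pool II neither call remained. In tumour the subsets had no member called in either direction (0.567% each way), and none by voom. At an unadjusted limma p under 0.05, 2 members differed, Hgf and Areg, where 675 of all 12878 genes were higher and 767 lower. The fixed replicate block within tissue called 1, Areg, higher in MHCIIlow cells by 1.52 (0.0276), given without the share of all genes it called.

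In LP, 5 members were higher in macrophages than in monocytes, Igf1, the 3 PDGF ligands and Bmp2 (background 12.5%), and 1 was lower, Nrg1 (17.0%). In tumour 5 were higher, Igf1, Hgf and the 3 PDGF ligands (16.8%), and 4 were lower, the EGF family ligands Ereg, Areg, Nrg1 and Hbegf (21.4%). Without LP monocyte pool III or pool IV the LP count dropped to 3, and without any 1 library the tumour count was 8. The shares of all genes called in these refits are not given.

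**Figure D4:**
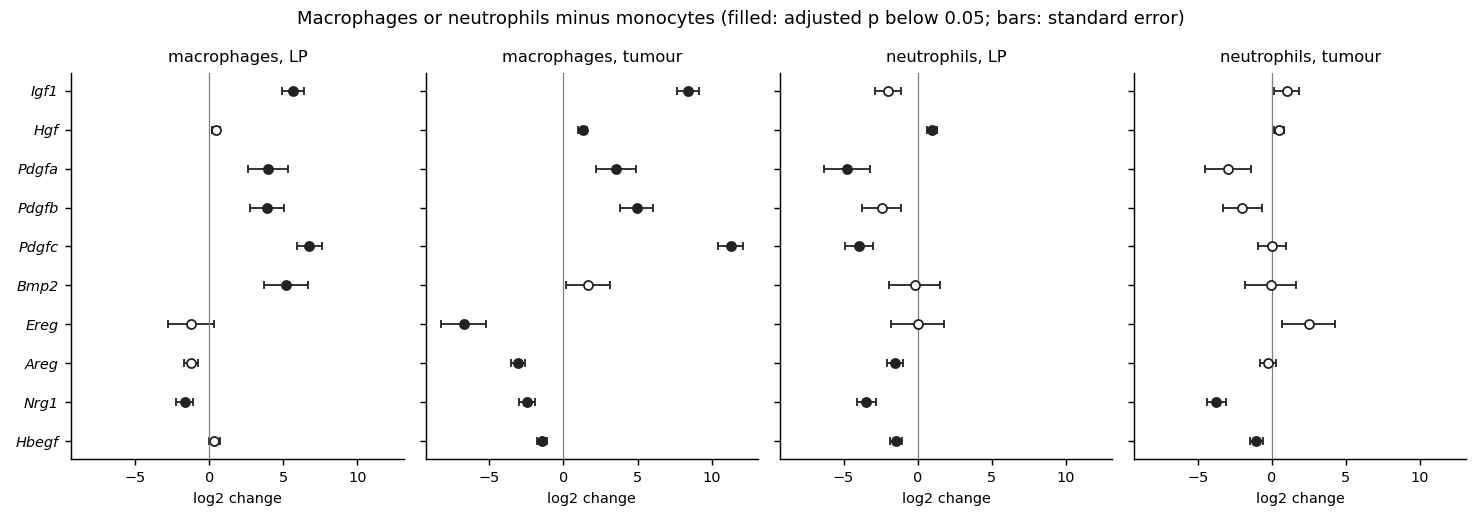
Log2 difference from monocytes for each of the 10 genes (points, bars 1 standard error) in macrophages, taken as the mean of both subsets, and in neutrophils, for LP and tumour. In tumour macrophages Igf1 and the PDGF ligands lie to the right of 0, up to Pdgfc at 11.28 (a fitted value that depends on the prior count), and Ereg, Areg, Nrg1 and Hbegf to the left.

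Neutrophils against monocytes gave in LP 1 member higher, Hgf (24.1%), and 5 lower, Pdgfa, Pdgfc, Areg, Nrg1 and Hbegf (30.4%). In tumour none was higher (23.3%) and 2 were lower, Nrg1 and Hbegf (34.9%). The median of all genes was itself -0.24 in LP and -0.36 in tumour, and it moved to -1.05 and -1.45 with library sizes as summed reads. There the tumour count was 5 lower, given without the share of all genes called. The Pdgfa call in LP, at -4.77 ± 1.56 (limma adjusted p = 0.0143), was lost with the libraries compared alone (0.097) and without LP neutrophil pool III (0.128).

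Tests of the difference between tumour effects called few members. For macrophages against monocytes, 1 tumour effect was higher, that of Pdgfc (background 3.55%), and 1 was lower, that of Hbegf (5.64%). With the fixed block within tissue neither was called (0.0847 and 0.0886). For MHCIIlow against MHCIIhi macrophages no member was called (1.13% higher and 0.326% lower of all genes). At an unadjusted limma p under 0.05, 3 members differed, where 1021 of all 12878 genes were higher and 621 lower. Voom called 2, Igf1 and Pdgfc, and the fixed block within tissue 1, Areg, both given without the share of all genes called. For neutrophils against monocytes none was called (3.61% higher and 5.50% lower), and none by voom. There 2 members differed at an unadjusted limma p under 0.05, where 1254 of all genes were higher and 1903 lower. Nrg1 was called in MHCIIhi and not in MHCIIlow cells, and this was not shown to be a difference between the subsets. For Areg the difference passed with a fixed replicate block only.

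The partners of these ligands were measured in the same libraries. For every list below, the shares of all genes called higher and lower were 8.01% and 11.5% in tumour against LP MHCIIhi macrophages. In MHCIIlow macrophages they were 11.5% and 11.8%. Of the proteins that release EGF family ligands or process growth factor precursors, 6 of 6 genes deposited were tested. Furin, a proprotein convertase, fell by 2.15 in tumour MHCIIhi and 1.54 in tumour MHCIIlow macrophages on the log2 scale (limma adjusted p = 3.83e-06 and 0.000128), and Rhbdf2, which helps ADAM17 reach the cell surface, fell by 1.03 in MHCIIlow cells (limma adjusted p = 2.83e-05). Adam10 rose by 0.95 and 1.09 (limma adjusted p = 0.000404 and 7.44e-05). In all, 2 genes of this list were higher and 2 lower in MHCIIhi, and 1 higher and 2 lower in MHCIIlow cells. Of the EGF family receptors 3 were deposited and 2 tested, Egfr and Erbb3, with no call between tumour and LP macrophages, while Erbb3, a receptor for neuregulins, rose from LP to tumour neutrophils (limma adjusted p = 0.00157), on 0 to 28 reads per LP and 13 to 96 reads per tumour library. Epithelial marker sums were higher there too, at 260 to 520 RPKM against 21.8 to 105 RPKM, and their part in the Erbb3 rise was not tested.

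Around IGF1, 9 of 12 genes deposited were tested. In tumour MHCIIhi macrophages 2 were higher and 2 lower than in LP, the largest changes being Igfbp3, an IGF-binding protein, with 32 to 186 reads per LP library and none in tumour (limma adjusted p = 0.00633), Igf2r at -2.83 (9.46e-05) and Insr, the insulin receptor, at 1.70 (0.00786). In MHCIIlow cells 1 was higher and 6 lower. Igfbp4, like Igf1, was higher in macrophages than monocytes, by 3.02 in LP (limma adjusted p = 1.28e-08) and 4.45 in tumour (2.6e-11). Between the MHCIIlow groups, where Igf1 was level, the mean of Igfbp4 was 5.55 log2 RPKM in LP and 4.26 in tumour. Igf1r, the IGF1 receptor, was a neutrophil transcript, 4.49 above monocytes in LP (6.46e-10) and 3.88 in tumour (3.66e-09).

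Around HGF, 10 of 11 genes deposited were tested. Met, the HGF receptor, measured 5.63 ± 0.15 in LP and 5.64 ± 0.13 in tumour monocytes (SD, n = 3) and was lower in macrophages, by 2.97 in LP (limma adjusted p = 1.89e-06) and 5.39 in tumour (2.2e-10). From LP to tumour MHCIIhi macrophages Met fell by 3.62 (1.97e-06) while Hgf rose, and Plau, the protease urokinase, rose by 1.98 (0.000228). These were the only 2 of the list called there. In MHCIIlow cells 2 were higher, St14 by 2.59 (0.0266) and Spint1, an inhibitor of the HGF activator, by 2.57 (3.86e-06), and 2 were lower, of which Plat changed most, by -2.14 (0.033).

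Of the PDGF axis, 2 of 5 genes were tested. Nrp1, a co-receptor, exceeded monocytes in macrophages by 2.78 in LP (limma adjusted p = 9.39e-07) and 2.53 in tumour (1.5e-06), and neither it nor Pdgfrb was called between tumour and LP macrophages. Of the BMP ligands, receptors and antagonists 7 of 13 were tested. In MHCIIlow macrophages of tumour against LP 2 were lower, the receptor Bmpr1a, with 36 to 142 reads per LP library and none in tumour (0.000714), and the antagonist Grem1, with 70 to 128 reads per LP and 0 to 14 reads per tumour library (0.0204). Grem1 was also higher in LP MHCIIlow than LP MHCIIhi macrophages, which held 0 to 2 reads (0.0218). Of 7 BMP signalling genes and targets tested, 1 was lower in tumour MHCIIlow macrophages, Id1, by 1.32 (0.0398), and 1 was higher in tumour MHCIIhi macrophages, Id2, by 0.80 (0.00242).

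Markers of other cells moved with tissue. The 13 fibroblast markers other than Mmp2, a split made after their values were seen because Mmp2 alone made up most of the sum in tumour macrophages, summed to 11.6 to 95.4 RPKM in the 12 LP libraries and 0.391 to 2.54 RPKM in the 12 tumour libraries. Of all 14, 9 were lower and 1 higher in tumour MHCIIhi, and 10 lower and 1 higher in tumour MHCIIlow macrophages, and 9 of 14 had no read in tumour monocytes, Col1a1, Col1a2, Col3a1 and Pdgfra among them. The 16 epithelial markers summed to 8.49 to 43.2 RPKM in LP macrophages, 12.7 to 290 RPKM in tumour macrophages, 31.7 to 323 RPKM in LP and 176 to 529 RPKM in tumour monocytes, and 21.8 to 105 RPKM in LP and 260 to 520 RPKM in tumour neutrophils, with no marker at 0 in any whole group but Krt20 in LP MHCIIlow cells. Epithelial RNA was thus higher where Areg was higher, in neutrophils of tumour over LP, and its part in the Areg result was not tested. The fall of Areg, Hbegf and Ereg in tumour MHCIIhi macrophages went with epithelial sums of 12.7 to 108 RPKM in tumour against 8.49 to 26.7 RPKM in LP. The summed lymphoid and dendritic cell markers, each made up mostly of 1 gene in LP, moved with that fall and with the fall of Nrg1. The 9 T, NK and innate lymphoid markers deposited, of 11 listed, summed to 142 to 150 RPKM in LP and 16.8 to 25.4 RPKM in tumour MHCIIhi macrophages, and the 8 dendritic cell markers to 54.5 to 76.8 RPKM and 8.44 to 19 RPKM, with no marker of either list at 0 in these groups. Il7r alone held 139 to 145 RPKM of the lymphoid sum in LP and 12.2 to 20.2 RPKM in tumour MHCIIhi macrophages. LP monocytes also held Il7r, at 67.3 to 80.3 RPKM. Ccr7 held 41.3 to 60.7 RPKM of the dendritic sum in LP and 5.01 to 13.2 RPKM in tumour. Trac, a T cell gene, held at most 0.54 RPKM in LP and 1.75 RPKM in tumour MHCIIhi macrophages. In MHCIIlow macrophages the lymphoid sums overlapped, at 20.7 to 60.2 RPKM in LP and 28.4 to 34.1 RPKM in tumour, and the dendritic sums were 9.76 to 18.1 RPKM and 5.15 to 6.21 RPKM. Of the genes tested, 1 of 7 lymphoid and 3 of 6 dendritic markers fell in tumour MHCIIhi macrophages, where 11.5% of all genes did. The part of this RNA in the lower Areg, Hbegf, Ereg and Nrg1 was not tested. Fibroblast RNA was lower in tumour in all 4 cell types, and its part in the lower Bmp2, Grem1, Pdgfa and Ereg of tumour macrophages was not tested. The 10 endothelial and platelet markers summed to 55.8 to 169 RPKM in tumour MHCIIlow macrophages. They summed to 20.7 to 41 RPKM in LP MHCIIlow and 7.32 to 24.1 RPKM in tumour MHCIIhi macrophages. The part of that RNA in the PDGF ligand levels was not tested.

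**Figure D5:**
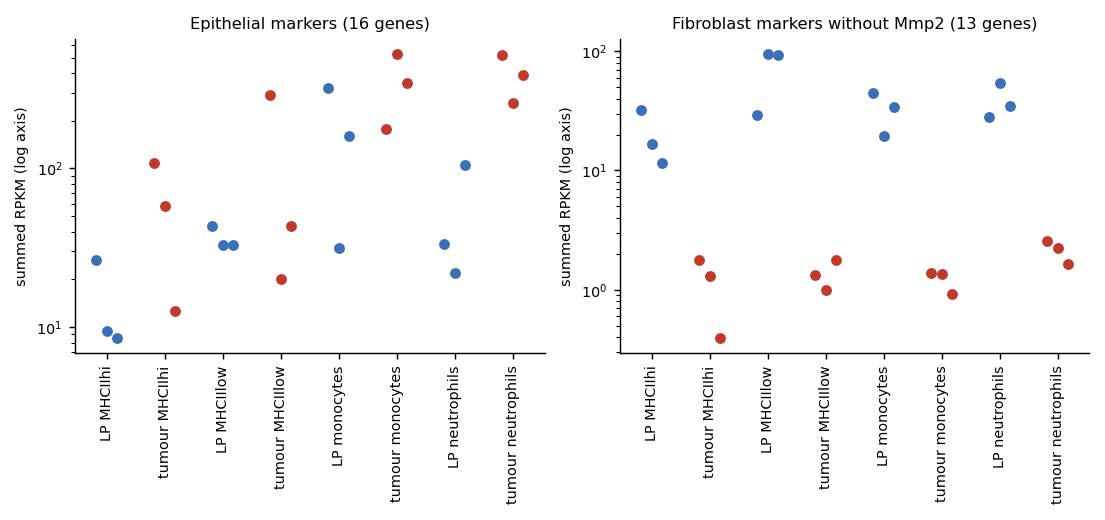
Summed RPKM on a log axis of 16 epithelial markers (left) and of 13 fibroblast markers without Mmp2 (right) in each library, blue for LP and red for tumour. All 12 LP libraries lie at 11.6 RPKM or more for the fibroblast genes and all 12 tumour libraries at 2.54 RPKM or less.

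Genes of the immediate-early response, which tissue dissociation can raise, were abundant in every library, at a sum of 3258 to 7537 RPKM in macrophages, 4071 to 7787 RPKM in monocytes, 11600 to 13190 RPKM in LP and 33590 to 41010 RPKM in tumour neutrophils. Of 22 tested, 7 were higher and 2 lower in tumour MHCIIhi macrophages (8.01% and 11.5% of all genes). In MHCIIlow macrophages 2 were higher and 6 lower (11.5% and 11.8%). In monocytes 8 were higher and none lower (4.86% and 4.43%), and in neutrophils 13 higher and none lower (13.1% and 19.0%). Their part in the Areg rise of tumour neutrophils was not tested, and in tumour and LP the tissue was dissociated by different steps. In a bulk library fewer producing cells and less RNA per cell cannot be told apart.

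Across the 24 libraries, each member had neighbours in pattern, given here by Pearson's r of log2 RPKM as a description in which points of a group share cell type and tissue. Igf1 was most like Rgl3 (0.956), Vcam1 (0.948) and C1qb (0.947), Pdgfc like Igfbp4 (0.976), St18 (0.970) and Blnk (0.961), and Pdgfb like Cryzl2 (0.943), Nxpe5 (0.942) and Itga9 (0.934). Nrg1 was most like Vdr (0.941), Syngr2 (0.891) and Clcf1 (0.891), Hbegf like Gnb1 (0.890), Raph1 (0.879) and Pdlim1 (0.874), and Areg like Lad1 (0.850), Cyth2 (0.834) and P2ry1 (0.822). The nearest to Hgf were Man2b1 (0.914), Aagab (0.855) and Slc35c2 (0.821), to Pdgfa Noc3l (0.938), Ripor1 (0.938) and Spire1 (0.936), to Bmp2 Rhbdf1 (0.90), Wdr34 (0.873) and Npl (0.838), and to Ereg Magi3 (0.902), Itih5 (0.858) and Arap2 (0.857). Within the set the closest pair was Igf1 and Pdgfc (0.92).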

How the data were processed

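RNA from 24 libraries of sorted cells was sequenced after SMARTSeq v2 amplification. The authors aligned reads with STAR 2.3 to GRCm38, counted them per gene with featureCounts 1.5, removed genes of few reads and deposited log2 RPKM values for 17301 genes. Those values gave back whole reads for 100% of 415224 values (tolerance 0.0001 reads, prior 0.25 reads), and summed reads per library were 12.8 M to 41.7 M (M for mega).

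Genes with a mean of at least 1 RPKM in at least 1 group (12878) were fitted with limma 3.58.1 in R 4.3.3, with 8 group means over all 24 libraries and a trended prior variance, and p-values were adjusted by Benjamini-Hochberg within each of 13 comparisons (threshold 0.05). The study used limma with voom; voom on the recovered reads was run as an alternative. The script was tested on simulated data. Other alternatives were the log2(RPKM + 1) scale, other filters, quantile normalization, summed reads as library sizes, only the libraries compared, the pool number as a replicate block (random within tissue, fixed, and, added after seeing the data, fixed within tissue), and leaving out each library. Libraries of a group are separate pools of mice, and p-values measure the spread between pools.

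The labels call the pool numbers donors, so the numbers pair libraries within a tissue. Deviations of the 29 such pairs from their group means correlated at r = -0.0661 to 0.255 (median 0.0169), and the correlation within pools estimated by limma was 0.0476.

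The 10 genes and the gene lists were chosen with earlier results of these data known. All 10 genes are named in order of family. Of other lists, whole counts are given and at most 3 called genes per comparison are named by size of change. For each of the 10, the 3 genes of highest Pearson's r are named, predicted and antigen receptor genes left out. Sequences and motif shares are from RefSeq (GRCm38.p6). Counting intervals and limits cover counting error only.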

Additional observations from a re-analysis of the deposited data

Results flagged for a closer look

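The change from LP to tumour in macrophages, less that in monocytes, was called for Pdgfc at 4.52 ± 1.16 and for Hbegf at -1.79 ± 0.50 on the log2 scale (limma adjusted p = 0.0166 and 0.0285), which tests the difference between cell types itself. For Pdgfc the value rests on tumour monocytes with 0 reads and LP monocytes with 12, 43 and 2 reads and depends on the prior count. It was lost without LP monocyte pool III (4.20, 0.0519) or IV (3.69, 0.0582), with voom (3.51, 0.0863), with the fixed block within tissue (4.70, 0.0847) and on the log2(RPKM + 1) scale, where its sign changed (-0.40, 0.269). For Hbegf every tumour macrophage library lay below every LP library of its subset, while the monocyte groups overlapped. That call was lost without LP monocyte pool III (-1.62, 0.0866) or IV (-1.68, 0.0704) without tumour monocyte pool V (-1.30, 0.11), with the libraries compared alone (0.0531) and with the fixed block within tissue (-1.58, 0.0886). Voom called Areg in place of Pdgfc (-2.07, 0.0145).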

How the results depend on the processing

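Of 1260 refits of the members' 130 values under 10 alternatives, 1168 kept direction and side of the threshold, 31 lost a call, 60 gained one and 1 changed direction, the Pdgfc difference between macrophages and monocytes in tumour effect on the log2(RPKM + 1) scale (-0.40, limma adjusted p = 0.269). Of 1080 refits without 1 library, 1018 kept both, 51 lost a call and 11 gained one, and 16 of the 37 called values were ended by no refit. The cause of these changes was not tested. The counts that follow are given without the share of all genes called under the same alternative. With log2(RPKM + 1), the members called changed from 3 to 6 for tumour against LP MHCIIlow macrophages, from 1 to 0 for monocytes, from 2 to 6 between the LP macrophage subsets and from 0 to 3 for the tumour effects of the subsets. Voom gave 6, 6 and 2 for MHCIIlow macrophages, the LP subsets and the subsets' tumour effects, and 1 in place of 2 for tumour neutrophils against monocytes. With the libraries compared alone the same 3 counts were 5, 4 and 1. Quantile normalization and summed library sizes left 0 in place of 1 for tumour against LP neutrophils, and summed sizes gave 5 in place of 2 for tumour neutrophils against monocytes and 1 in place of 0 for their tumour effects. The fixed replicate block planned at first ties the pools of the 2 tissues by number alone. With it the counts were 0 in place of 1 for neutrophils, 1 in place of 0 between the tumour subsets, 1 in place of 0 for the subsets' tumour effects and 0 in place of 2 for those of macrophages and monocytes (Pdgfc 4.68, 0.0776, and Hbegf -1.60, 0.0853). With the fixed block within tissue, added after seeing the data, tumour minus LP in 1 cell type could not be estimated, and the counts were 1 in place of 2 between the LP subsets, 1 in place of 0 between the tumour subsets, 1 in place of 0 for the subsets' tumour effects and 0 in place of 2 for those of macrophages and monocytes. The random block within tissue moved no count by over 1.5 times.

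Leaving out 1 library gave 3 to 5 members called for tumour against LP MHCIIhi macrophages (3 without LP pool III or V or tumour pool VII), 2 to 3 for MHCIIlow, 1 for monocytes and 0 to 1 for neutrophils. The count was 0 to 2 between LP subsets and 0 between tumour subsets, 3 to 7 and 8 for macrophages against monocytes in LP and tumour, and 4 to 6 and 1 to 2 for neutrophils against monocytes. For the tumour effects it was 0 for the subsets, 0 to 3 for macrophages and 0 to 1 for neutrophils, both against monocytes. Depth limits Pdgfc and Ereg, and also Igf1, Pdgfa, Pdgfb and Bmp2 outside macrophages, where some libraries, though not most, held 0 to 4 reads.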
